A study of Mus musculus with 15 samples.

Results

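NRF2, the transcription factor encoded by Nfe2l2, its inhibitor Keap1 and 8 antioxidant genes commonly grouped with them were followed in the kidneys of mice with adenine-induced chronic kidney disease (CKD). The 8 genes were Nqo1, Hmox1, Gclc, Gclm, Txnrd1, Srxn1, Gpx4 and Gsr. They were chosen by name, as the genes of the deposited table whose Ensembl identifiers map on GRCm38 to these symbols, and all 10 were found among the 54532 genes listed. All 10 were above 0 in all 15 libraries and so passed the filter on low values in every comparison.

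The data were RNA sequencing values of 1 kidney each from 15 male C57BL/6 mice, 8 weeks old at the start and killed after 8 weeks. The control group (C) ate normal chow. The CKD model group (M) received 0.25% adenine in the chow for 4 weeks, which damages the tubules through crystals of an adenine product, and returned to standard chow for the remaining weeks. The AA group received the same adenine chow and 30 mg/kg of asiatic acid, a triterpene of the herb Centella asiatica, by daily gavage through all 8 weeks. C and M mice were gavaged with vehicle, so every mouse was gavaged and only M and AA mice ate adenine. Each group held 5 mice, numbered as in the library names, and these were part of the mice assigned to each group. The design compared M with C (the disease), AA with M (the treatment) and AA with C (treated against healthy). Each group's libraries enter 2 of these 3 comparisons, which are therefore not independent of one another.

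Values were FPKM (fragments counted on a gene, scaled by its length and by a total for its library), as the authors deposited them. The fragments recovered from the steps between FPKM values, known only up to a factor of 2, summed to between 13644612 and 28883309 per library, of which between 2077496 and 13576397 lay outside mitochondrial genes. Mitochondrial genes held 53.0% to 62.5% of them in C, 64.0% to 86.8% in M and 69.2% to 87.2% in AA. M mice 1 to 3 stood apart, with 10068 to 12222 genes above 0 against 18695 to 25460 in the other libraries, so the main results that rest on M are also given with M mice 4 and 5 only. The recovered fragments of a library summed to 0.435 to 1.93 times the total its FPKM values had been divided by, so the deposited scale was not one of equal totals. Results were therefore also computed after scaling every library to the same FPKM total (TPM) and with limma voom on the recovered fragments. None of the 9 proximal tubule markers was at 0 throughout a group, but their summed FPKM ranged from 395 to 2634 in C, from 16.9 to 117 in M and from 45.6 to 84.8 in AA. In whole tissue, fewer cells of a type and less RNA per cell cannot be told apart.

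In an unstressed cell, KEAP1 binds NRF2 and hands it to a ubiquitin ligase built on CUL3, and the protein is destroyed about as fast as it is made. Oxidants and electrophiles modify cysteines of KEAP1, NRF2 escapes, pairs with a small MAF protein and binds antioxidant response elements near its target genes. The targets make glutathione, recycle it and thioredoxin with NADPH, and remove quinones, heme and peroxides. Because NRF2 is mainly controlled as a protein, the mRNA levels of Nfe2l2 and Keap1 do not by themselves report its activity. Proximal tubule cells, which reabsorb most of the filtrate and burn much oxygen doing so, depend on this defence in the kidney.

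The promoters are shown because the core of the antioxidant response element, TGACNNNGC (GCNNNGTCA when read on the opposite strand), is the shared feature by which NRF2 recognises its targets. Windows of 250 bases before to 50 after each annotated start were taken from RefSeq (GRCm38.p6), which gave 12 windows for 7 of the 10 genes. Hmox1, Gclc and Gsr were not matched. On either strand, the core was found once in 4 windows, belonging to 4 of the 7 genes, against 12.39% of all 32851 windows and 13.99% of all 27025 genes. The matches are printed in the gene's own direction with 10 bases on each side and the core in capitals.
Nfe2l2: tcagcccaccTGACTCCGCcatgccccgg
Gclm: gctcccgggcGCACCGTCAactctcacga
Txnrd1: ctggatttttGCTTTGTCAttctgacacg
Srxn1: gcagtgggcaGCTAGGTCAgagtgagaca
The Nfe2l2 stretch lies at chr2:75704885-75704913 on the minus strand and holds the core in the direction of the gene, 240 to 232 bases before the start. The Gclm stretch at chr3:122245413-122245441 holds it on the opposite strand, 134 to 126 bases before the start. The Txnrd1 stretch at chr10:82859104-82859132 belongs to 1 of its 3 annotated starts and holds the core on the opposite strand, 92 to 84 bases before it. In Srxn1, at chr2:152105542-152105570, the core lies on the opposite strand and inside the transcript, at positions 28 to 36 after the start. A match to these letters is a description of the sequence and not a measured binding site, and elements farther from a start are not seen in such windows.

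Across the 10 genes, the call that held under every scaling was Gclc in AA vs. C, and the 2 subunits of glutamate-cysteine ligase, Gclc and Gclm, parted in AA mice. Gclc was at 16.3 ± 7.08 FPKM in C, 7.29 ± 2.18 in M and 5.10 ± 1.29 in AA, while Gclm was at 7.57 ± 1.28, 3.84 ± 1.31 and 7.18 ± 1.73 (mean ± SD, n = 5 throughout). The other 8 genes overlapped between groups in every comparison, except Gsr in AA vs. C. Differences below are of mean log2(FPKM + 1), a scale that understates the change of genes near or under 1 FPKM, with the standard error of the limma fit, and p-values are limma's, adjusted over all genes tested in that comparison unless called exact or unadjusted. A gene was called where that p was 0.05 or less and the log2 difference, up or down, reached 1.

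For M vs. C, limma called 0 of the 10 genes, where it called 1.38% of the 21153 genes tested. Without adjustment 3 of them had a p under 0.05 (16.5% of all genes did), namely Gclc, Gclm and Gpx4, all lower in M, and limma voom called the same 3 genes lower, beside 8.68% of all genes. The M and C libraries did not overlap for 2 genes, Gclc and Gclm, beside 4.72% of all genes. For AA vs. M, limma called 0 of 10 beside 12.8% of the 19798 genes tested, 1 gene (Gclm) had an unadjusted p under 0.05 beside 32.1%, limma voom called 0 beside 8.55%, and 0 genes had groups that did not overlap beside 13.2%. For AA vs. C, limma called 1 gene, Gclc, beside 19.8% of the 21898 genes tested. In that comparison 4 genes had an adjusted p of at most 0.05 (Gclc, Keap1 and Gpx4 lower, Gsr higher), beside 35.9% of all genes, and the groups did not overlap for 2 of them, Gclc and Gsr, beside 24%. With all 15 libraries in 1 fit the adjusted p of Keap1, Gpx4 and Gsr was 0.0521, 0.0552 and 0.0772. The median log2 difference of the 10 genes was -0.10 in M vs. C, -0.021 in AA vs. M and -0.21 in AA vs. C, where the medians of all genes tested were -0.12, 0.17 and 0.091.

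**Figure D1:**
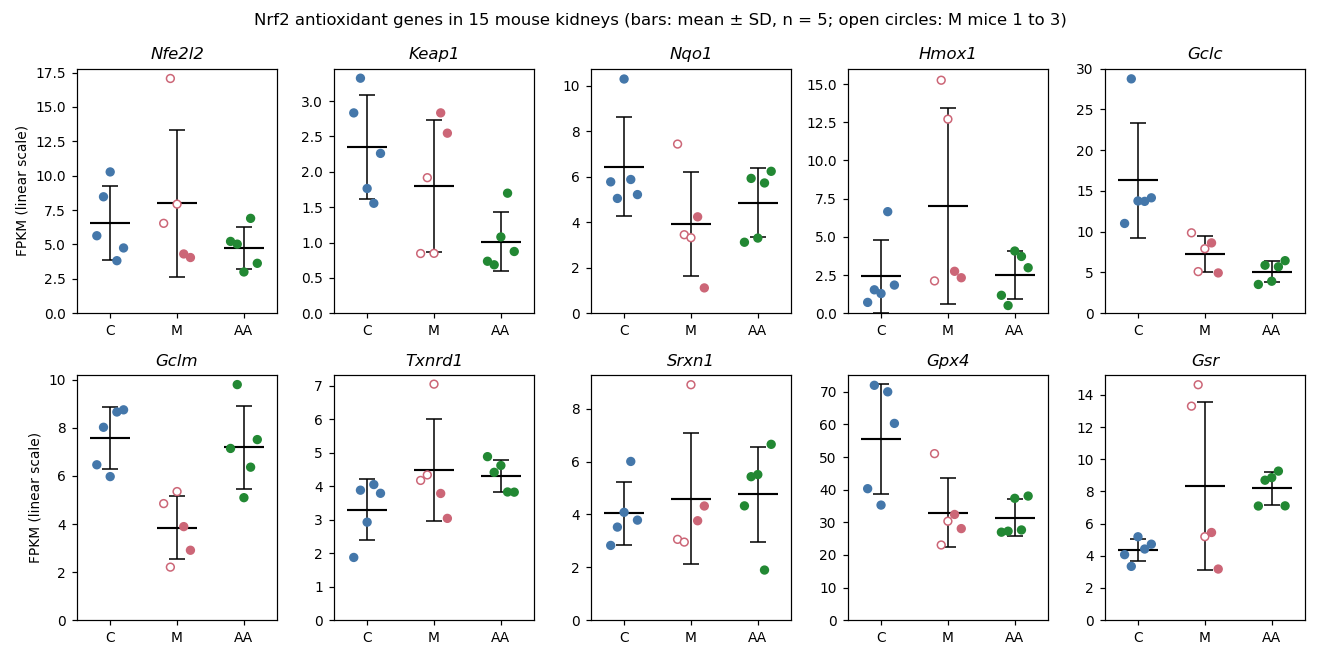
FPKM (linear axes from 0) of the 10 genes in each of 15 kidneys, by group (C, M, AA); each point is 1 mouse, the wide bar is the mean, the whiskers are ± 1 SD with n = 5, and open circles are M mice 1 to 3. Gclc lies lower in every M and AA mouse than in every C mouse, Gclm lies lower in every M mouse than in every C mouse, and the highest Nfe2l2, Hmox1 and Gsr values belong to open circles.

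Nfe2l2 (ENSMUSG00000015839, chr2:75675513-75704641, minus strand) encodes NRF2 itself. It was at 5.63, 8.47, 10.3, 3.82 and 4.75 FPKM in C mice 1 to 5, at 6.54, 17.1, 7.93, 4.31 and 4.05 in M, and at 5.22, 5.02, 3.00, 6.90 and 3.63 in AA. The 3 groups overlapped, and M mice 1 to 3 (6.54 to 17.1) lay above M mice 4 and 5 (4.05 and 4.31). M differed from C by 0.15 ± 0.39 (adjusted p = 0.860), a sign that turned without M mouse 2 (-0.15), with M mice 4 and 5 only (-0.48), under TPM (-0.79) and with voom (-0.80). AA differed from M by -0.51 ± 0.38 (adjusted p = 0.378), which was 0.11 with M mice 4 and 5 only, and from C by -0.37 ± 0.28 (adjusted p = 0.320).

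Keap1 (ENSMUSG00000003308, chr9:21229730-21239361, minus strand) encodes the adaptor that holds NRF2 for degradation. Its values were 2.83, 3.32, 1.76, 1.55 and 2.26 FPKM in C, 0.845, 1.92, 0.847, 2.83 and 2.55 in M, and 0.735, 0.685, 1.08, 1.70 and 0.873 in AA. Only AA mouse 4 reached into the range of C, and all 5 AA mice were below the C mean of 2.35. AA was lower than C by 0.73 (log2 difference -0.73 ± 0.22, 95% interval -1.21 to -0.25, adjusted p = 0.0235), under the fold required for a call. That p passed in 9 of 10 fits with 1 library left out (highest 0.0584), and it stayed at or under 0.05 under every scaling (0.00309 to 0.0380). The difference was called with a pseudocount of 0.1 (-1.15), under TPM (-1.59) and with voom (-2.23). M against C gave -0.30 ± 0.31 (adjusted p = 0.642), or 0.17 with M mice 4 and 5 only, and AA against M gave -0.43 ± 0.31 (adjusted p = 0.372). Of its exon bases, 10.9% lie opposite the antisense gene Gm16754, listed at 0 to 0.259 FPKM, and no source states that strand was used in counting.

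The ratio of Nfe2l2 to Keap1, the factor over its inhibitor, was taken within each library as the difference of log2(FPKM + 1). It averaged 1.14 ± 0.52 in C, 1.58 ± 1.02 in M and 1.50 ± 0.38 in AA. M mice 1 to 3 had ratios of 2.03, 2.63 and 2.27, and M mice 4 and 5 had 0.47 and 0.51, so the M group held values both above and below every AA mouse (0.94 to 1.84). In exact permutation tests M differed from C by 0.45 (p = 0.452), AA from M by -0.087 (p = 0.873) and AA from C by 0.36 (p = 0.238), and none passed after adjustment over the 9 ratio tests. With M mice 4 and 5 only, the first difference was -0.65 (exact p = 0.190) and the second was 1.01 (exact p = 0.0476, unadjusted). Without C mouse 3, whose ratio was 2.03, AA exceeded C by 0.58 (exact p = 0.0317, unadjusted).

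Nqo1 (ENSMUSG00000003849, chr8:107388225-107403206, minus strand) encodes a quinone reductase and is often read as a reporter of NRF2 activity. It was at 5.77, 5.05, 10.3, 5.88 and 5.21 FPKM in C, 7.44, 3.45, 3.32, 4.24 and 1.11 in M, and 3.12, 5.93, 3.30, 5.73 and 6.24 in AA. Outside M mouse 1, the M values all lay below the C values, and AA spanned a range that overlapped both. The difference of M from C was -0.69 ± 0.36 (adjusted p = 0.358), AA from M by 0.35 ± 0.37 (adjusted p = 0.563) and AA from C by -0.35 ± 0.26 (adjusted p = 0.303). Under TPM it was called lower in M than in C (-1.69, adjusted p = 0.0347) and lower in AA than in C (-1.36, adjusted p = 0.0197).

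Hmox1 (ENSMUSG00000005413, chr8:75093621-75100589, plus strand) encodes heme oxygenase 1, which opens the heme ring and releases iron, and macrophages as well as injured tubules express it. Its values were 0.711, 1.53, 1.29, 6.65 and 1.84 FPKM in C, 2.12, 15.2, 12.7, 2.75 and 2.32 in M, and 1.17, 0.507, 4.07, 3.72 and 2.98 in AA. M mice 2 and 3 stood above the other 13 libraries, and the remaining 3 M mice lay inside the range of C. Against C, M differed by 1.06 ± 0.55 (95% interval -0.13 to 2.26, adjusted p = 0.354), and by 0.27 with M mice 4 and 5 only. AA differed from M by -0.96 ± 0.54 (adjusted p = 0.238), or -0.16 with M mice 4 and 5 only. AA differed from C by 0.11 ± 0.43 (adjusted p = 0.863), a sign that turned under TPM (-0.60) and with voom (-0.87). As few as 8 recovered fragments lay behind a value in AA and 40 in C, the fewest of the 10 genes in any library of those groups. By group median Hmox1 was not the shallowest in M (141, against 70 for Nqo1) or in AA (84, against 66 for Keap1). Summed FPKM of 8 macrophage markers ranged over 17.9 to 118 in C, 160 to 463 in M and 113 to 165 in AA. The medians of these sums were 29.7, 356 and 148, and M mice 4 and 5 were at 160 and 162. Mean Hmox1 was 2.41 FPKM in C, 7.03 in M and 2.49 in AA. The part of the macrophage markers in the Hmox1 values was not tested.

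Glutathione is made in 2 steps, of which the first, joining glutamate to cysteine, limits the rate. Gclc (ENSMUSG00000032350, chr9:77754535-77794485, plus strand) encodes the catalytic subunit of that ligase. It was at 11.0, 28.7, 13.8, 13.7 and 14.2 FPKM in C, 9.86, 5.11, 7.92, 8.63 and 4.94 in M, and 3.53, 5.89, 3.93, 5.70 and 6.45 in AA. Every M and every AA mouse lay below every C mouse, and M and AA overlapped. Gclc fell in AA against C by 1.45 (log2 difference -1.45 ± 0.27, 95% interval -2.04 to -0.87, adjusted p = 0.00231), and was called in all 10 fits with 1 library left out (-1.56 to -1.24), under TPM (-2.53) and with voom (-2.59). Against C, M differed by -1.02 ± 0.32 (95% interval -1.71 to -0.33, adjusted p = 0.139), past the fold but not the p, and was called under TPM (-2.02, adjusted p = 0.0103) and with voom (-1.98, adjusted p = 0.0118). AA against M gave -0.43 ± 0.31 (adjusted p = 0.363).

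Gclm (ENSMUSG00000028124, chr3:122245557-122270732, plus strand) encodes the modifier subunit, which raises the activity of the catalytic one. It was at 6.46, 8.02, 5.97, 8.66 and 8.75 FPKM in C, 4.85, 2.21, 5.35, 3.89 and 2.91 in M, and 7.14, 9.80, 5.10, 6.36 and 7.51 in AA. Every M mouse lay below every C mouse, and 4 of 5 AA mice lay above every M mouse, the exception being AA mouse 3. Gclm in M differed from C by -0.86 ± 0.28 (95% interval -1.46 to -0.25, adjusted p = 0.155), and was called under TPM (-1.83, adjusted p = 0.0117) and with voom (-1.85, adjusted p = 0.0118). AA exceeded M by 0.78 ± 0.31 (95% interval 0.12 to 1.43, adjusted p = 0.0944), with all 5 AA mice above the M mean, by 0.64 to 0.89 with 1 library left out, and by 0.88 with M mice 4 and 5 only. With all 15 libraries in 1 fit the adjusted p of that difference was 0.0369, still short of the fold for a call. AA differed from C by -0.079 ± 0.21 (95% interval -0.54 to 0.38, adjusted p = 0.789), which was 0.032 after centring each library on its median, and -1.11 under TPM and -1.04 with voom, both called. Of its 31-base words, 6.83% occur in another gene's transcripts. Of its exon bases, 4.71% overlap the opposite-strand Gm17494 (0 to 0.316 FPKM) and 3.88% the pseudogene Gm6061, listed at 0 in every library.

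Set against each other within a library, the subunits kept the same order of FPKM in C and M and exchanged it in AA. Gclc was above Gclm in FPKM in all 10 C and M libraries, and Gclm was above Gclc in all 5 AA libraries. The log2 ratio of Gclm to Gclc was -0.69, -1.72, -1.08, -0.61 and -0.64 in C, -0.89, -0.93, -0.49, -0.98 and -0.60 in M, and 0.85, 0.65, 0.31, 0.14 and 0.19 in AA. AA exceeded M by 1.21 and C by 1.37, each with an exact permutation p of 0.00794, the smallest that 5 against 5 allows, and an adjusted p of 0.0357 over the 9 ratio tests, with 5 of 5 AA mice above the other group's mean. M differed from C by 0.17 (exact p = 0.579). The ratios were chosen with earlier results of these data known, and these p-values do not allow for that choice. Leaving out 1 library moved the difference from M within 1.10 to 1.28 and from C within 1.18 to 1.46, and M mice 4 and 5 alone gave 1.22 (exact p = 0.0476). A library's total divides both genes alike, so the order of the 2 FPKM values holds whatever total is used, and a pseudocount of 0.1 gave 1.42 and 1.52. The order does rest on the gene lengths (joined exons of 6291 bases for Gclm and 3766 for Gclc). In recovered fragments Gclm was also above Gclc in C mouse 4 (1844 against 1749), C mouse 5 (1842 against 1784) and M mouse 3 (457 against 405). Apart from the pseudocount, the shift of the ratio between groups does not depend on length.

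**Figure D2:**
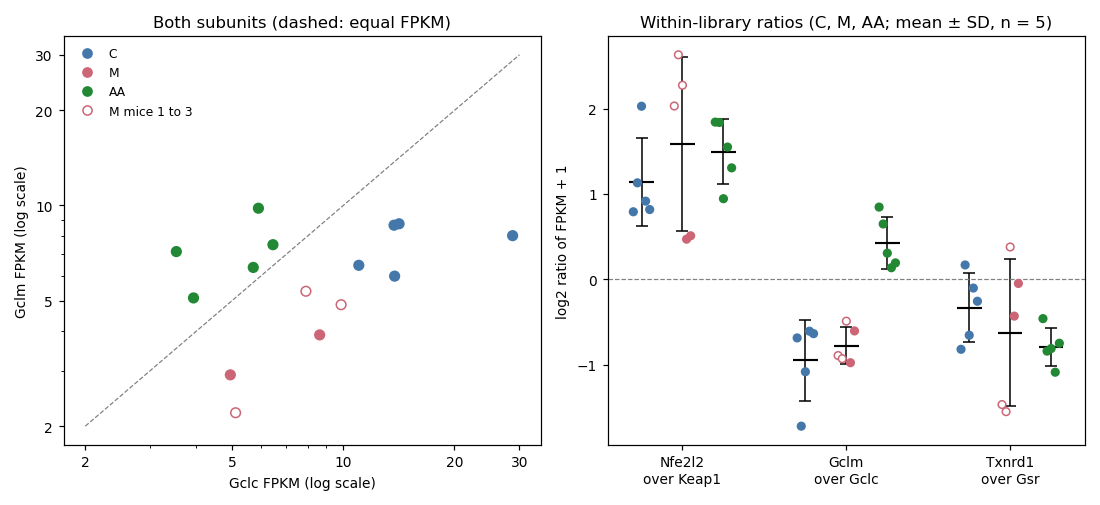
Left, FPKM of Gclm against Gclc in 15 kidneys on log axes, with a dashed line of equal FPKM; right, log2 ratios of FPKM + 1 within each library for 3 pairs of genes in C, M and AA, with the mean (wide bar) ± SD (n = 5) and open circles for M mice 1 to 3. All 5 AA points lie above the line of equal FPKM and all 10 C and M points below it, while the other ratios overlap between groups.

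Gsr (ENSMUSG00000031584, chr8:33652523-33698163, plus strand) encodes glutathione reductase, which returns oxidised glutathione to its reduced form. It was at 4.07, 3.34, 5.18, 4.42 and 4.72 FPKM in C, 13.3, 14.6, 5.19, 5.45 and 3.18 in M, and 7.09, 8.70, 8.86, 9.26 and 7.10 in AA. Every AA mouse lay above every C mouse, and the M group was split, with mice 1 and 2 above and mice 3 to 5 below all AA mice. On the deposited scale AA exceeded C by 0.79 ± 0.19 (95% interval 0.38 to 1.20, adjusted p = 0.00782), under the fold of a call and with an adjusted p of 0.0112 to 0.0205 when 1 library was left out, but the difference was -0.17 under TPM and -0.038 with voom. Without mitochondrial genes the difference was 0.69 (adjusted p = 0.0378). For M against C the difference was 0.63 ± 0.37 (adjusted p = 0.425), a sign that turned under TPM (-0.27), with voom (-0.22) and with M mice 4 and 5 only (-0.033). AA differed from M by 0.16 ± 0.38 (adjusted p = 0.818).

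Gpx4 (ENSMUSG00000075706, chr10:80047166-80056439, plus strand) encodes the peroxidase that reduces lipid hydroperoxides inside membranes and so guards against ferroptosis. It was the most abundant of the 10 genes in every library, at 40.3, 72.0, 35.3, 70.0 and 60.3 FPKM in C, 51.0, 23.0, 30.3, 32.4 and 28.1 in M, and 27.0, 27.3, 37.3, 27.6 and 38.0 in AA. C mice 1 and 3 lay among the higher M and AA mice, and C mice 2, 4 and 5 above all of them. M differed from C by -0.73 ± 0.32 (95% interval -1.42 to -0.033, adjusted p = 0.279), and was called under TPM (-1.74) and with voom (-1.60). With voom the median of all genes tested was itself -1.63. AA was lower than C by 0.76 (log2 difference -0.76 ± 0.26, adjusted p = 0.0360), with all 5 AA mice below the C mean, but that p passed in only 4 of 10 fits with 1 library left out (highest 0.0846) and was 0.0551 after centring on library medians. AA and M differed by -0.033 ± 0.31 (95% interval -0.70 to 0.63, adjusted p = 0.958), which was 0.026 after centring on library medians. Of its 31-base words, 38.9% occur in other genes' transcripts, so its values depend on how such reads were counted.

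Txnrd1 (ENSMUSG00000020250, chr10:82833951-82897712, plus strand) encodes the cytosolic thioredoxin reductase, which passes electrons of NADPH to thioredoxin. It was at 1.87, 3.88, 2.93, 4.05 and 3.79 FPKM in C, 4.17, 4.34, 7.05, 3.78 and 3.04 in M, and 4.88, 4.41, 4.62, 3.83 and 3.82 in AA. The AA mice were the most alike of any gene and group, with the highest only 1.28 times the lowest, and the groups overlapped. M differed from C by 0.34 ± 0.29 (adjusted p = 0.576) and AA from C by 0.33 ± 0.21 (adjusted p = 0.233), signs that turned under TPM (-0.51 and -0.58) and with voom (-0.44 and -0.53). AA differed from M by -0.0086 ± 0.28 (adjusted p = 0.989), or by 0.051 after centring on library medians. The ratio of Txnrd1 to Gsr averaged -0.33 ± 0.40 in C, -0.62 ± 0.86 in M and -0.79 ± 0.22 in AA. AA lay below C by 0.46 in that ratio (difference -0.46, exact p = 0.0635, adjusted p = 0.190), and by 0.58 without C mouse 1 (-0.58, exact p = 0.0238, unadjusted).

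Srxn1 (ENSMUSG00000032802, chr2:152105516-152111376, plus strand) encodes sulfiredoxin, which rescues overoxidised peroxiredoxins. Its values were 2.83, 3.52, 4.08, 6.00 and 3.78 FPKM in C, 3.06, 2.95, 8.90, 3.76 and 4.32 in M, and 4.32, 5.43, 5.51, 1.90 and 6.65 in AA. Both the highest value (M mouse 3) and the lowest (AA mouse 4) came from adenine-fed mice, and the groups overlapped. M differed from C by 0.090 ± 0.32 (adjusted p = 0.896), a sign that turned without M mouse 3 (-0.14), under TPM (-0.78) and with voom (-0.70). AA differed from M by 0.059 ± 0.36 (adjusted p = 0.933), turning to -0.043 under TPM, -0.10 without mitochondrial genes and -0.054 with voom, and from C by 0.15 ± 0.28 (adjusted p = 0.695), turning to -0.83 under TPM and -0.76 with voom.

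**Figure D3:**
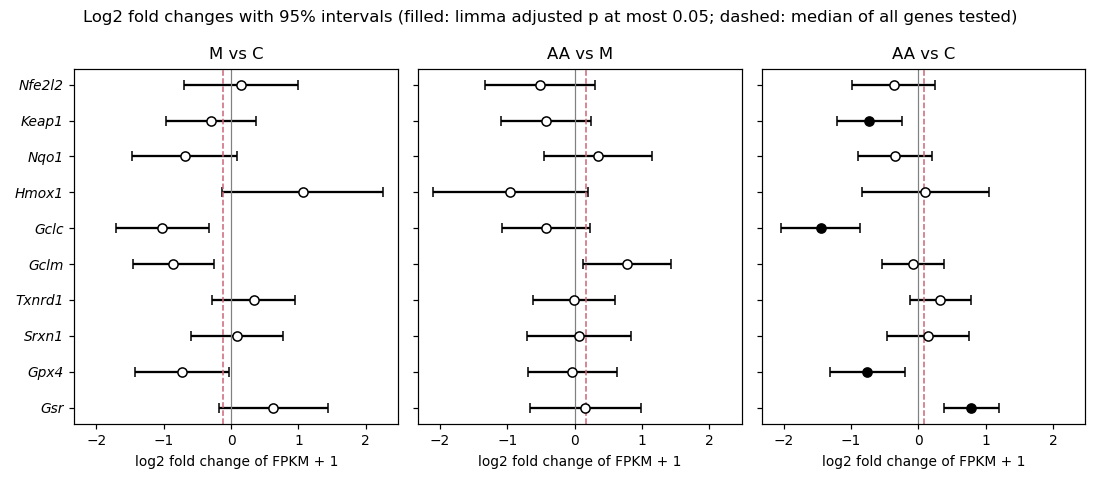
Log2 fold changes of FPKM + 1 for the 10 genes in the 3 comparisons, with 95% intervals of the limma fit from 10 libraries each; filled points have an adjusted p of at most 0.05 and the dashed line is the median of all genes tested. No point is filled in M vs. C or AA vs. M, and 4 are in AA vs. C (Keap1, Gclc and Gpx4 lower, Gsr higher).

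FPKM are per length, so levels can also be compared between genes. In C, Gpx4 (55.6 FPKM on average) was followed by Gclc (16.3), each above the next in 5 of 5 libraries. Then came Gclm (7.57), Nfe2l2 (6.59) and Nqo1 (6.44), which did not differ beyond their spread, and Gsr, Srxn1, Txnrd1, Hmox1 and Keap1 between 4.35 and 2.35. In M, Gpx4 (33.0) led in 5 of 5 libraries, while Gsr, Nfe2l2, Gclc and Hmox1 (8.35 to 7.03) did not differ beyond their SDs of 2.18 to 6.41, Gclm stood ninth at 3.84 and Keap1 last at 1.80. In AA, Gpx4 (31.5), Gsr (8.20) and Gclm (7.18) led, Gclm was above Gclc (5.10) in 5 of 5 libraries, the next 4 genes lay within 4.86 to 4.31, and Hmox1 (2.49) and Keap1 (1.01) were lowest.

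How the libraries were scaled set the direction of several of these genes. Under TPM the median of all genes tested moved from -0.12 to -0.58 in M vs. C and from 0.091 to -0.39 in AA vs. C, and with voom to -1.63 and -0.75. All 10 genes but Hmox1 were then lower in M than in C under TPM and with voom, and all 10 were lower in AA than in C under both. TPM called 4 genes lower in M than in C (Nqo1, Gclc, Gclm and Gpx4), beside 7.46% of all genes, and 6 lower in AA than in C (Nfe2l2, Keap1, Nqo1, Gclc, Gclm and Gpx4), beside 27%. With voom the same 6 were called lower in AA than in C, beside 31.9% of all genes. For AA vs. M the median stayed at 0.12 under TPM but rose to 0.70 with voom, and neither called any of the 10 genes, where TPM called 2.13% of all genes. Relative to the median of all genes, Gclc was lower in AA than in C by 1.54 on the deposited scale, 2.14 under TPM and 1.84 with voom, and Gsr was higher by 0.70, 0.22 and 0.71. Relative to the median, Gclc was lower in M than in C by 0.90, 1.45 and 0.35, and Gclm lower by 0.73, 1.25 and 0.22. Gpx4 was lower by 0.60 and 1.16 on the first 2 of these scales, but lay 0.033 above the median with voom.

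**Figure D4:**
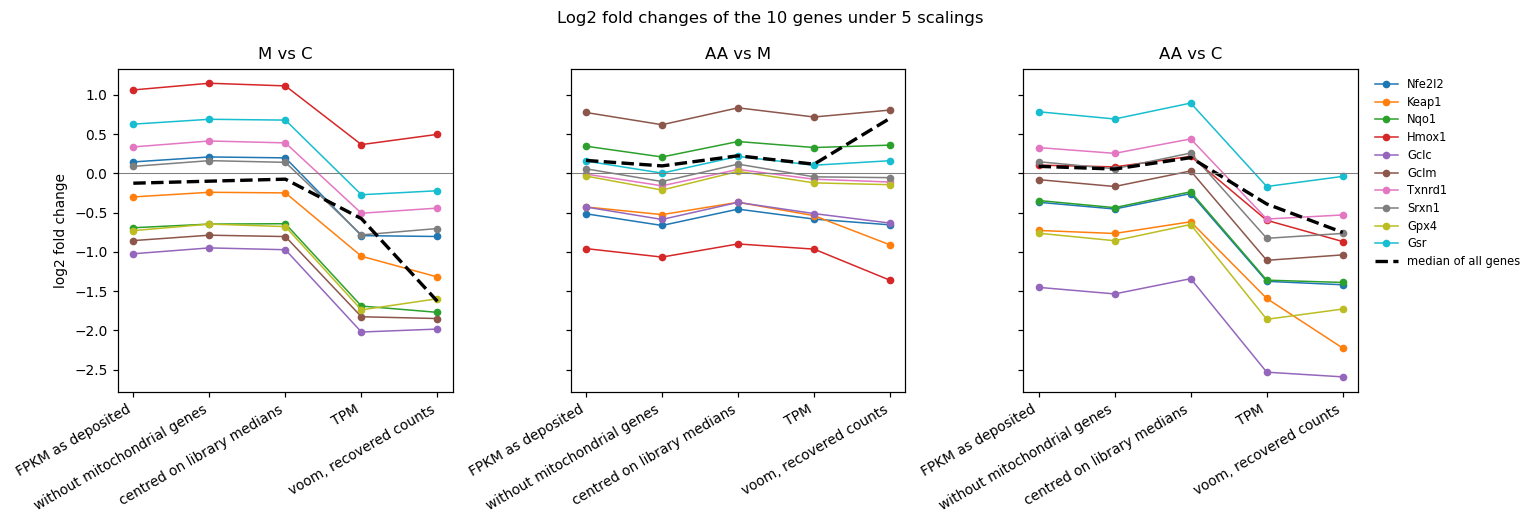
Log2 fold changes of the 10 genes under 5 scalings (deposited FPKM, FPKM without mitochondrial genes, centred on library medians, TPM, and voom on recovered fragments) for each comparison; the dashed black line is the median of all genes tested. In M vs. C and AA vs. C the lines drop together from the third scaling to TPM, with Gclc lowest throughout, and in AA vs. M Gclm is highest and Hmox1 lowest under every scaling.

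A further 70 genes in 9 lists place the 10 in their pathway, and all 70 were found in the table. Of those tested, 0 were called higher and 2 lower in M vs. C (2.90% of 69), 2 higher and 3 lower in AA vs. M (7.35% of 68), and 0 higher and 9 lower in AA vs. C (13.0% of 69). The shares for all genes were 1.38%, 12.8% and 19.8%. The median log2 difference of the 70 was -0.17, -0.0057 and -0.091 in the 3 comparisons. Some lists hold genes that are themselves abundant in proximal tubule cells, whose markers were lower in M and AA as given above: 5 of 9 were called lower in M than in C, 0 of 9 called in AA vs. M and 6 of 9 lower in AA than in C. The part of the tubule markers in the values below was not tested.

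Glutathione supply and peroxidases held the largest differences of the 70 genes. Ggt1, the brush border enzyme that breaks down extracellular glutathione, was at 58.6 to 237 FPKM in C, 0.617 to 37.8 in M and 4.20 to 10.8 in AA. It fell by 3.66 in M vs. C (adjusted p = 0.0407) and by 3.89 in AA vs. C (adjusted p = 0.000119). Gpx3, the secreted peroxidase made by proximal tubules, fell from 1221 to 5940 FPKM in C to 172 to 711 in M (log2 difference -2.99, adjusted p = 0.0229) and 309 to 460 in AA (-2.85, adjusted p = 0.000813). The 2 M vs. C calls were not firm: with 1 library left out, Ggt1 passed in 3 and Gpx3 in 5 of 10 fits, and with M mice 4 and 5 only, a fit that called 0 of 20868 genes, the differences were -1.76 and -2.36. Between AA and M, Ggt1 differed by -0.23 (adjusted p = 0.862), but by -2.12 (adjusted p = 0.00872) with M mice 4 and 5 only. Gss, which completes glutathione, was at 11.6 ± 6.38 in C, 2.88 ± 1.67 in M and 1.77 ± 0.999 in AA, and was called in AA vs. C (-2.13, adjusted p = 0.00131) but not in M vs. C (-1.71, adjusted p = 0.0759). Slc3a2, a chain of the cystine carrier, was lower in AA than in C (-0.81, adjusted p = 0.0172). Gpx1, the cytosolic peroxidase, was higher in AA than in C (0.77, adjusted p = 0.0269), a sign that turned under TPM (-0.32) and with voom (-0.16), and passed in 5 of 10 fits with 1 library left out. The list had 2 of 9 tested genes called lower in M vs. C, 0 called in AA vs. M and 3 called lower in AA vs. C.

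The 10 regulators of NRF2 gave 0 calls in M vs. C, 1 in AA vs. M and 0 in AA vs. C. Bach2, a repressor related to the one that competes with NRF2 for its elements, was at 0, 0, 0.119, 0.624 and 0.480 FPKM in M and at 1.91, 2.82, 1.27, 1.31 and 0.737 in AA. It rose in AA vs. M by 1.05 (adjusted p = 0.0201), lost that call with M mice 4 and 5 only (0.70, adjusted p = 0.220), and without M mouse 1 or M mouse 3 (adjusted p = 0.0514 and 0.0513). Rbx1, the RING subunit of the CUL3 ligase (-0.81, adjusted p = 0.0168), Sqstm1, the autophagy receptor that sequesters KEAP1 (-0.69, adjusted p = 0.0349), and Btrc, which routes NRF2 to another ligase (-0.52, adjusted p = 0.0229), were lower in AA than in C and short of the fold for a call. With 1 library left out, Sqstm1 passed in 3 and Btrc in 7 of 10 fits, and after centring on library medians Sqstm1 had an adjusted p of 0.0606. Bach2 was higher there (0.87, adjusted p = 0.0136).

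In the thioredoxin and peroxiredoxin list, 0 of 14 genes were called in M vs. C or AA vs. M and 1 in AA vs. C. Prdx5, a peroxiredoxin of mitochondria and peroxisomes, fell from 75.8 ± 15.3 FPKM in C to 33.9 ± 12.9 in AA (-1.19, adjusted p = 0.00719), and was at 27.7 ± 19.1 in M (-1.63, adjusted p = 0.0734). The other reductases were lower in AA vs. C, short of the fold for a call: Txnrd2 of mitochondria was lower by 0.98 (log2 difference -0.98, adjusted p = 0.0104), Txnrd3 by 0.93 (-0.93, adjusted p = 0.0143) and the mitochondrial thioredoxin Txn2 by 0.69 (-0.69, adjusted p = 0.0229, passed in 6 of 10 fits with 1 library left out). Of the 4 genes that remove superoxide and peroxide, all had negative differences in M vs. C (median -1.19) with 0 called, and in AA vs. C Sod1, the cytosolic superoxide dismutase, fell by 1.25 (adjusted p = 0.00297) while Cat, catalase, was lower (-0.79, adjusted p = 0.0270, passed in 6 of 10 such fits).

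NADPH supply and NADPH use held 4 of the 5 calls of AA vs. M. Me1, the malic enzyme that makes NADPH, was at 9.29, 1.14, 7.54, 5.49 and 3.56 FPKM in M and 16.9, 16.0, 12.5, 8.38 and 18.9 in AA, and rose by 1.42 (adjusted p = 0.0326, and 0.0341 with M mice 4 and 5 only). Pgd, which makes NADPH in the pentose phosphate pathway, was at 3.85, 6.46, 6.03, 3.95 and 5.24 in M and 1.97, 1.74, 1.45, 2.60 and 1.81 in AA, and fell by 1.06 (adjusted p = 0.0185), every AA mouse lying below every M mouse, but with M mice 4 and 5 only it was not called (-0.94, adjusted p = 0.0733). So 2 enzymes with the same product differed in opposite directions, and both passed in fits with 1 library left out, Pgd in 10 of 10 and Me1 in 6 of 10. Tkt, of the same pathway as Pgd, was lower in AA than in C (-0.71, adjusted p = 0.0420, passed in 4 of 10 such fits), as was Pgd (-0.87, adjusted p = 0.0119). Among 7 genes of the NADPH oxidases, which spend NADPH to make superoxide, Cyba fell in AA vs. M by 1.09 (adjusted p = 0.0291) and Ncf1 by 1.08 (adjusted p = 0.0298). With 1 library left out, Cyba passed in 5 and Ncf1 in 6 of 10 fits. With M mice 4 and 5 only, Cyba differed by -1.52 (adjusted p = 0.0156) and Ncf1 by -1.01 (adjusted p = 0.0564). Ncf1 was at 0.0408 to 0.952 FPKM in C, 1.09 to 4.34 in M and 0 to 0.848 in AA, so M lay above both other groups, though M vs. C gave an adjusted p of 0.0704. Cyba was 42.3 ± 24.0 in C, 18.5 ± 6.28 in M and 7.89 ± 1.57 in AA, and was also called in AA vs. C (-2.14, adjusted p = 0.000913). Macrophages carry the phagocyte form of this oxidase. Of their 8 markers 7 were higher in M vs. C, 4 of them called, and Csf1r was lower (-1.01, adjusted p = 0.205). All 8 were lower in AA vs. M, 1 of them called. In AA vs. C 5 were called higher and Csf1r was called lower (-1.52, adjusted p = 0.00376). The part of the macrophage markers was not tested. TPM called 0 of these 5 AA vs. M genes and voom called 1, Bach2.

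Of the remaining 3 lists, that of heme and iron had 0 calls in any comparison, and the other two had calls in AA vs. C alone. Fth1, the heavy chain of the iron store ferritin and a partner of Hmox1, was at 485 to 1038 FPKM in C, 452 to 1429 in M and 947 to 1463 in AA, and was higher in AA than in C (0.88, adjusted p = 0.0260), a sign that turned under TPM (-0.23) and with voom (-0.063), and passed in 5 of 10 fits with 1 library left out. Osgin1, an NRF2-responsive growth inhibitor, fell by 2.75 in AA vs. C (adjusted p = 0.00339), with 17.1 ± 14.5 FPKM in C, 2.04 ± 2.16 in M (adjusted p = 0.0517) and 1.53 ± 1.43 in AA. Ephx1, the microsomal epoxide hydrolase, fell by 1.42 (adjusted p = 0.00930). Of the lipid peroxide and ferroptosis partners of Gpx4, Lpcat3 fell in AA vs. C by 1.14 (adjusted p = 0.00848), and Aifm2, a ferroptosis suppressor, was lower (-0.80, adjusted p = 0.0145). Acsl4 was higher by 0.59 (adjusted p = 0.0439), a sign that turned under TPM (-0.23) and with voom (-0.14), and passed in 3 of 10 such fits.

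**Figure D5:**
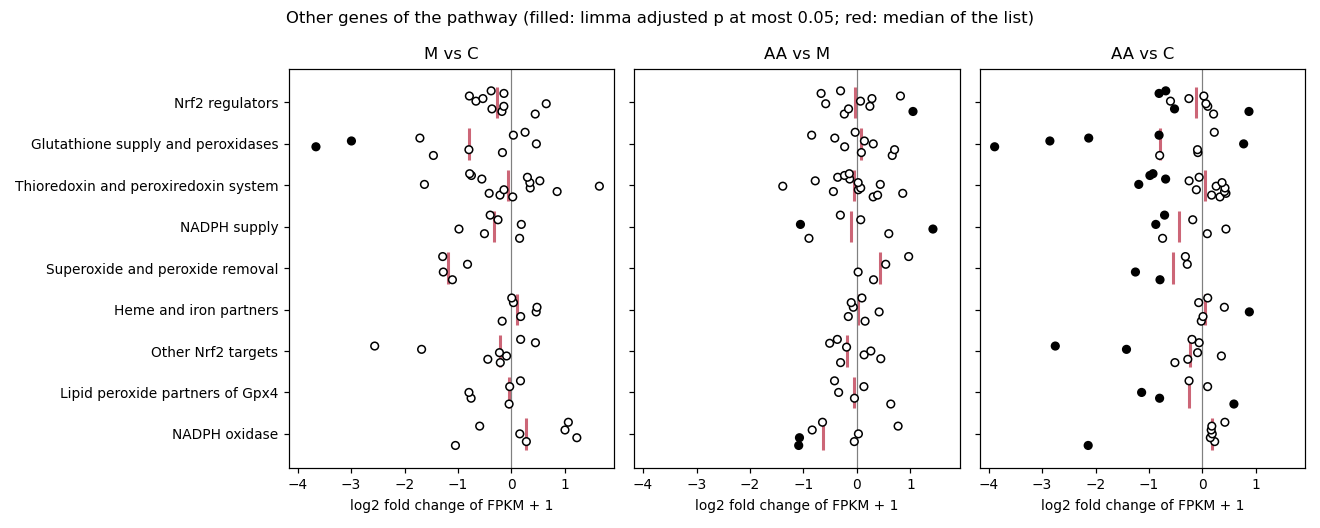
Log2 fold changes of the other pathway genes in 9 lists for the 3 comparisons; each circle is 1 gene, filled circles have an adjusted p of at most 0.05, and the red bar is the median of the list. The 2 filled circles in M vs. C are Ggt1 and Gpx3, and of the 24 filled circles in AA vs. C 4 lie above 0 (Bach2, Gpx1, Fth1 and Acsl4).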

How the data were processed

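The authors trimmed the reads of adapters and poor bases (fastp, per the labels), aligned paired reads of 150 bases to mm10 with HISAT2 2.0.5, counted them on genes with featureCounts 1.5.0-p3 and deposited 1 FPKM value per gene and kidney. Their own tests were of counts (DESeq2), not analysed here. Groups and mouse numbers came from the library names, and 1 mouse was 1 replicate. Identifiers were matched to GENCODE M21 on GRCm38 (54495 of 54532), which also gave coordinates and joined exon lengths.

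FPKM are not counts, so limma 3.58.1 in R 4.3.3 (trend, two-sided, Benjamini-Hochberg adjustment) was run on log2(FPKM + 1) over every gene above 0 in 5 or more of the 10 libraries. Intervals are 95% limma intervals. Fragments were recovered as whole multiples of the smallest FPKM steps (97.9% to 99.4% of low values within 0.1 of a whole number), which leaves a factor of 2 open, so no counting interval was computed. Each of 3 ratios was compared by exact permutation (two-sided), adjusted over 9 tests. All 10 genes were named, and of the 70 pathway genes those with an adjusted p of 0.05 or less in any comparison, at most 6 a list. Members, gene lists and tests were chosen with earlier results of these data known. Words of 31 bases shared with other transcripts, exon overlaps and promoter matches came from GENCODE M21 and RefSeq. Scripts were tested on simulated data. Alternatives were a pseudocount of 0.1, no filter, TPM, no mitochondrial genes, centring on library medians (7207 genes above 0 in all libraries), all 15 libraries in 1 fit, a replicate block, voom, each library left out, and M mice 4 and 5 only. Python 3.11.15, numpy 2.4.6, pandas 2.3.3 and matplotlib 3.10.9 were used.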

Additional observations from a re-analysis of the deposited data

Results flagged for a closer look

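Libraries far from the other 4 of their group were sought with Dixon's ratio on the log2(FPKM + 1) scale (critical value 0.71). It was taken in 39 groups of 5, the 10 genes and 3 ratios in C, M and AA. Chance alone marks about 1 in 20 such groups, and 3 were found, all in C. Nqo1 was at 10.3 FPKM in C mouse 3 (ratio 0.794), where the other C mice lay between 5.05 and 5.88, and without that mouse AA differed from C by -0.18. Gclc was at 28.7 FPKM in C mouse 2 (ratio 0.744), where the other C mice lay between 11.0 and 14.2, and without it Gclc was lower in AA than in C (-1.24, still called by limma). The log2 ratio of Nfe2l2 to Keap1 was 2.03 in C mouse 3 (ratio 0.726), where the other C mice lay between 0.79 and 1.13.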

How the results depend on the processing

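Gclc in AA vs. C was called under every alternative run. The ratios were run only with a pseudocount of 0.1, the replicate block, M mice 4 and 5 only and each library left out. The Gclm over Gclc differences of AA kept their sign under each of these that applied. Calls among the 10 genes numbered 0 in M vs. C (4 under TPM, 3 with voom), 0 in AA vs. M under every alternative, and 1 in AA vs. C (2 with a pseudocount of 0.1, 6 under TPM, 6 with voom). Leaving out any 1 library moved none of these 3 counts. Calls among the pathway genes in M vs. C were 2, against 1 with a pseudocount of 0.1, 0 without a filter, 15 under TPM, 7 with all libraries in 1 fit, 15 with voom and 0 with M mice 4 and 5 only. In AA vs. M they were 5, against 0 under TPM, 3 without mitochondrial genes and 1 with voom. In AA vs. C they were 9, against 15 with a pseudocount of 0.1, 32 under TPM and 34 with voom. What makes the scalings differ was not tested.

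Signs turned under TPM and with voom, in that order, for M vs. C in Nfe2l2 (-0.79, -0.80), Txnrd1 (-0.51, -0.44), Srxn1 (-0.78, -0.70) and Gsr (-0.27, -0.22), for AA vs. M in Srxn1 (-0.043, -0.054), and for AA vs. C in Hmox1 (-0.60, -0.87), Txnrd1 (-0.58, -0.53), Srxn1 (-0.83, -0.76), Gsr (-0.17, -0.038), Gpx1 (-0.32, -0.16), Fth1 (-0.23, -0.063) and Acsl4 (-0.23, -0.14). Centring turned Txnrd1 (0.051) and Gpx4 (0.026) in AA vs. M and Gclm (0.032) in AA vs. C, and leaving out mitochondrial genes turned Srxn1 in AA vs. M (-0.10). With M mice 4 and 5 only, M vs. C turned in Nfe2l2 (-0.48), Keap1 (0.17), Gsr (-0.033), Nfe2l2 over Keap1 (-0.65) and Txnrd1 over Gsr (0.094), and AA vs. M turned in Nfe2l2 (0.11), Txnrd1 (0.27), Gpx4 (0.042) and Nfe2l2 over Keap1 (1.01), while Txnrd1 over Gsr reached -0.55 (exact p = 0.0476, unadjusted). A pseudocount of 0.1 turned Nfe2l2 over Keap1 in AA vs. M (0.090).

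With 1 library left out, a gene is listed here only if its sign turned. A ratio is also listed if it crossed an unadjusted exact p of 0.05. Pathway genes that lost an adjusted p of 0.05 or less are not listed here. That happened in 68 of these fits, and the fits that passed are given with each gene above. The differences listed ranged as follows. In M vs. C they were Nfe2l2 (-0.15 to 0.31), Srxn1 (-0.14 to 0.22) and Gclm over Gclc (-0.026 to 0.25). In AA vs. M they were Txnrd1 (-0.11 to 0.14), Srxn1 (-0.062 to 0.29), Gpx4 (-0.15 to 0.13), Gsr (-0.086 to 0.39), Nfe2l2 over Keap1 (-0.37 to 0.17) and Txnrd1 over Gsr (-0.40 to 0.084). In AA vs. C they were Hmox1 (-0.088 to 0.45), Gclm (-0.19 to 0.021), Nfe2l2 over Keap1 (0.27 to 0.58) and Txnrd1 over Gsr (-0.58 to -0.33).

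Replicate numbers did not pair the libraries: the correlations of same-numbered libraries, as deviations from their group means, ranged from -0.23 to 0.17, with 3 of 5 pairs over 0.1 for C and M, 1 for M and AA, and 2 for C and AA. With the replicate number as a block, M vs. C had 1 pathway call and AA vs. M had 0, the counts among the 10 genes did not move, and Keap1 and Gpx4 in AA vs. C had an adjusted p of 0.0642 and 0.0689. The Gclm over Gclc differences of 1.21 and 1.37 then had an exact p of 0.0625, the smallest that 5 pairs allow. The fewest recovered fragments in a single library were 8 for Hmox1 and 29 for Keap1.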

Other observations

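Some widely used NRF2 targets in the pathway lists that the naming rule left out were looked at after their values were seen, and those given first here had a higher mean in M than in C. Slc7a11, the cystine carrier that feeds glutathione synthesis, was barely expressed, at 0.0650 ± 0.0491 FPKM in C, 0.281 ± 0.195 in M and 0.244 ± 0.0977 in AA (limma adjusted p = 0.264 for M vs. C and 0.0519 for AA vs. C). Prdx1, an abundant peroxiredoxin, was at 18.9 ± 3.58 FPKM in C, 44.0 ± 28.1 in M and 25.5 ± 4.29 in AA (adjusted p = 0.411 for M vs. C). Txn1, thioredoxin, was at 33.3 ± 3.08 in C, 56.4 ± 33.9 in M and 28.6 ± 8.04 in AA (adjusted p = 0.531 for M vs. C). The M groups of Prdx1 and Txn1 had SDs several times those of C and AA. With M mice 4 and 5 only, M vs. C turned from 0.85 to -0.47 in Prdx1 and from 0.53 to -0.39 in Txn1. AA vs. M turned from -0.44 to 0.88 in Prdx1 and from -0.78 to 0.14 in Txn1. Other genes left out went the opposite way in M vs. C, such as Abcc2 (-1.46, adjusted p = 0.172), Abcc4 (-0.80, adjusted p = 0.367) and Abcc3 (-0.17, adjusted p = 0.792). The list of other NRF2 targets held 2 genes higher and 6 lower there.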
